A study of Homo sapiens with 4 samples.

Results

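Spectrins, ankyrins, plakins, utrophin and filamin A are giant scaffolds of the cytoskeleton, and their 10 genes, among 62700 genes counted, were chosen by symbol as very long scaffold genes: SPTAN1, SPTBN1, ANK2, ANK3, DST, MACF1, PLEC, EPPK1, UTRN and FLNA. All 10 were found, and all 10 passed the filter on low counts. The series profiled poly(A) RNA of HEK293T, a line derived from human embryonic kidney, after transient transfection of RPB1, the catalytic subunit of RNA polymerase II, in a form that α-amanitin does not inhibit. The WT construct carried an unaltered CTD, the tail of heptad repeats on RPB1, and the T4A construct had alanine in place of threonine 4 in every repeat. Both groups received α-amanitin at 2.5 µg/ml for 48 hours from 1 day after transfection to remove endogenous RPB1, and each had 2 libraries. The cells were a transfected population and not a clone, untransfected cells were not analysed here, and the comparison is between the 2 constructs.

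As background, α- and β-spectrin pair into long flexible rods that cross-link short actin filaments under the plasma membrane, and ankyrins fasten that meshwork to channels and adhesion proteins. Plakins tie actin, microtubules and intermediate filaments to each other and to junctions, utrophin links actin to the dystroglycan complex of the membrane, and filamin A cross-links actin into networks. Several of these proteins carry long arrays of spectrin repeats, so that their mRNAs are among the longest that human cells make, and some of the genes are also spread over very long introns.

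Sequencing depth was 19257217 to 23465029 counts in T4A and 24695291 to 33063535 in WT. POLR2A, which encodes RPB1, was at 5378 and 5477 counts per 1000000 (CPM) in T4A and 3772 and 2764 CPM in WT, with construct and endogenous transcripts counted together. Over all 18139 genes tested, 2351 fell and 1935 rose in T4A cells (adjusted p under 0.05, edgeR). With upper quartile scaling 1718 fell and 2690 rose, and with library totals alone 2987 fell and 1352 rose. Markers known in HEK293 cells (NEFL, NEFM, NES and PAX2) summed to 136 and 138 CPM in T4A and 152 and 154 CPM in WT. Most of this sum was NEFL, which was itself called lower in T4A (log2 fold change −0.17, adjusted p = 0.0299, edgeR). NEFM, NES and PAX2 were not called. Of 11 markers of other cell types found, 4 (CD68, COL1A2, KRT5 and KRT14) had no counts in any library. The whole marker list summed to 28.4 and 32.003 CPM in T4A and 32.5 and 34.9 CPM in WT, nearly all of it COL1A1. CPM are shares of a library, and in bulk RNA fewer cells of a type and less RNA per cell cannot be told apart. The part of depth and of the POLR2A level in the results that follow was not tested.

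The genes differ in how their length is made up. ANK3 (GRCh38, chromosome 10, 60026298 to 60733528) and ANK2 (chromosome 4, 112705622 to 113383736) span 707 and 678 kb. UTRN (chromosome 6, 144285335 to 144853034), DST (chromosome 6, 56457996 to 56954830) and MACF1 (chromosome 1, 39084167 to 39487138) span 568, 497 and 403 kb. SPTBN1 (chromosome 2, 54456327 to 54671446) spans 215 kb and SPTAN1 (chromosome 9, 128552587 to 128633662) 81.1 kb. PLEC and EPPK1 span 61.6 and 21.9 kb, and FLNA (chromosome X, 154348531 to 154374634) spans 26.1 kb. Their canonical transcripts, by contrast, are all long. They measure 24.7 kb for DST, 24.3 kb for MACF1, 17.0 kb for ANK3, 14.8 kb for PLEC, 14.2 kb for ANK2, 12.9 kb for UTRN, 10.2 kb for SPTBN1, 8.51 kb for FLNA and 7.88 kb for SPTAN1. The EPPK1 model in the lifted annotation was only partly mapped, so its 8 kb is incomplete. The group thus holds genes with long transcripts both in compact genes (FLNA, PLEC, SPTAN1) and in genes with very long introns (ANK3, ANK2, UTRN, DST, MACF1).

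Gene counts pool every transcription start of a gene, and the start windows show how much that pooling covers. RefSeq (GRCh38.p14) lists 1 start each for SPTAN1 and FLNA, 2 for SPTBN1 and for UTRN, 3 each for DST and MACF1, 4 for ANK3 and 10 for ANK2. The starts of UTRN lie 298 kb apart, those of MACF1 325 kb, those of DST 312 kb and those of ANK2 630 kb. The 250 bases before the start are shown for UTRN, the gene that fell most, at both of its starts, for SPTBN1 at its upstream start, and for the single starts of SPTAN1, with a small fall, and FLNA, which was not called. Capitals mark 4 motifs, searched on both strands. They are the GC box, spelled GGGCGG and known as a site of Sp1 factors, the CCAAT box, a site of the NF-Y factor, the TATA box, searched here as TATAAA, and the CArG box, a site of serum response factor.
UTRN upstream start (chr6:144285085-144285334, plus strand): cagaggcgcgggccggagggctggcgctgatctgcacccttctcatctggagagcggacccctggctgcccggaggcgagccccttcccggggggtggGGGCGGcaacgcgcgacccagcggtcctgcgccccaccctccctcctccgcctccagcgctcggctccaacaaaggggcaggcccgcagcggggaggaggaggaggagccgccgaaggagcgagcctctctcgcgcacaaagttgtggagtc
UTRN internal start (chr6:144582898-144583147, plus strand): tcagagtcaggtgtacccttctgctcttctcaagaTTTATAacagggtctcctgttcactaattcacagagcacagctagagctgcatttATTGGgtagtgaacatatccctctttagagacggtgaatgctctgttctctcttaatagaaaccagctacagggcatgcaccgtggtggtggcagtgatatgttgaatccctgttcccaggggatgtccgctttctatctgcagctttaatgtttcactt
SPTBN1 upstream start (chr2:54456077-54456326, plus strand): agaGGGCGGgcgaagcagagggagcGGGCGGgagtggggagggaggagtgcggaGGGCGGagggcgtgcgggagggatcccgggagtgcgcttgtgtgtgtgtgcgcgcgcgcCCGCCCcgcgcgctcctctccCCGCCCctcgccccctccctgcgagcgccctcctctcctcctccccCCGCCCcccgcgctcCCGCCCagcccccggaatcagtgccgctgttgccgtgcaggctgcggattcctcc
SPTAN1 (chr9:128552337-128552586, plus strand): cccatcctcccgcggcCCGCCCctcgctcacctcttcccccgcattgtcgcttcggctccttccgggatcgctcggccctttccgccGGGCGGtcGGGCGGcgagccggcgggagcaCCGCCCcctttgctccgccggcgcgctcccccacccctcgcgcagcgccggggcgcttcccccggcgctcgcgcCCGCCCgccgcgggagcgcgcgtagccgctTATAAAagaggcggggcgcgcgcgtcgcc
FLNA (chrX:154374635-154374884, minus strand): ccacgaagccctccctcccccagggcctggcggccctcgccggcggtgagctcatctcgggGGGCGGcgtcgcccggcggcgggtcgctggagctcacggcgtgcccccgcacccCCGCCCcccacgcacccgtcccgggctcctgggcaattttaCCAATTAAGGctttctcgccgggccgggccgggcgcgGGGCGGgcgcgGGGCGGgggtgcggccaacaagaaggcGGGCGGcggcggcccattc
The upstream UTRN window held 1 GGGCGG and was 73.2% G and C, whereas the internal window held 1 TATAAA and 1 CCAAT and no GGGCGG and was 45.6% G and C. The SPTBN1 window held 7 GGGCGG, and that of SPTAN1 held 5 and 1 TATAAA. FLNA held 5 GGGCGG and 1 CArG box, which begins with its CCAAT. In all, 9 of 26 windows of 8 members held GGGCGG, against 42.6% of 35114 windows of all genes, 9 held CCAAT (32.01% of all windows), 4 held TATAAA (10.7%) and 1 held a CArG box (1.16%). The windows are not 1 per gene, and 10 of the 26 are of ANK2. Each of the 8 members held GGGCGG in at least 1 window. These matches describe the letters and not sites in use.

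Of the 10 scaffold genes, 6 fell in T4A cells and 0 rose, while over all genes tested 13.0% fell and 10.7% rose, and 23.6% were called in either direction. UTRN, ANK3, DST, MACF1, SPTBN1 and SPTAN1 fell, and ANK2, EPPK1, FLNA and PLEC did not pass the test. The members' median log2 fold change was −0.52, against −0.01 over all genes tested. The changes ranged from −1.08 to 0.12. In 4 genes (UTRN, ANK3, DST and MACF1) the fall was over 1.5-fold, against 5.30% of all genes tested. Both T4A libraries lay below both WT libraries in 7 of the 10 genes (30.5% of all genes), and above both in 2 (28.5% of all genes). The 2 were PLEC and FLNA, and the gap in FLNA was very small (WT up to 1292.9 CPM, T4A from 1293.5 CPM). The genes were listed with earlier results of these libraries known, so these counts describe the group.

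**Figure D1:**
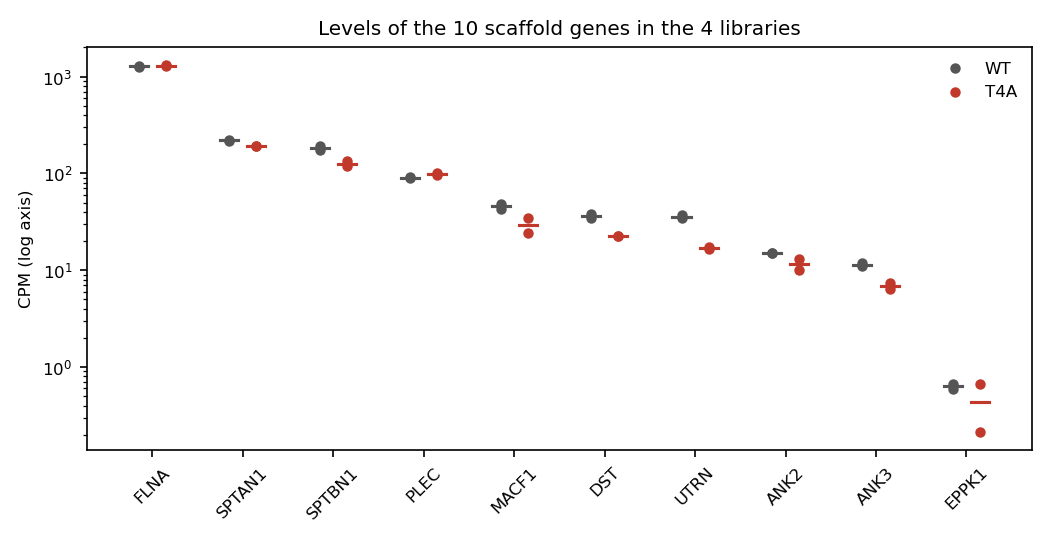
CPM (log axis) of the 10 scaffold genes, ordered by their WT mean, with WT libraries as grey and T4A libraries as red points. Short lines are the means of 2 libraries. UTRN, at 34.5 and 36.7 CPM in WT, lies at 16.6 and 17.2 CPM in T4A, and FLNA at about the same height in all 4 libraries.

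The spectrin pair did not change equally. SPTAN1, which encodes the α-spectrin of non-erythroid cells, was at 218 and 222 CPM in the WT libraries and at 193.3 and 192.9 CPM in the T4A libraries. The groups did not overlap, and SPTAN1 fell by 0.19 ± 0.05 on the log2 scale (SE, adjusted p = 0.00505), or to 0.878 of its WT level. With upper quartile scaling SPTAN1 no longer passed (−0.10, adjusted p = 0.122). SPTBN1, which encodes the main β-spectrin partner of SPTAN1, was at 191 and 175 CPM in WT and at 118 and 133 CPM in T4A. It fell by 0.55 ± 0.06 (adjusted p = 1.67e-06), or to 0.685 of its WT level. The 95% interval of its log2 fold change ran from −0.68 to −0.42 and that of SPTAN1 from −0.28 to −0.09, without overlap, although the difference between the 2 genes was not tested as such.

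The ankyrins were expressed at low levels. ANK3 encodes ankyrin-G, which places sodium channels and cadherins in membrane domains, and had 395 and 283 counts in WT (11.8 and 11.05 CPM) and 144 and 139 in T4A (6.35 and 7.39 CPM). ANK3 fell by 0.74 ± 0.17 (adjusted p = 0.00322). ANK2 encodes ankyrin-B, which holds ion transporters in excitable cells, and had 506 and 383 counts in WT (15.1 and 14.95 CPM) against 229 and 248 in T4A (10.1 and 13.2 CPM). Both T4A libraries were below WT, but the T4A libraries stood apart from each other. The log2 fold change of ANK2 was −0.37 ± 0.15 with a 95% interval from −0.68 to −0.06 (unadjusted p = 0.0211 and adjusted p = 0.0783, edgeR). Leaving out T4A replicate 2 gave −0.58, which passed (adjusted p = 0.00388), and leaving out T4A replicate 1 gave −0.19.

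The plakins split. DST, dystonin, and MACF1 are the spectraplakins, which carry both plakin and spectrin-repeat parts and join actin to microtubules. DST was at 37.7 and 34.6 CPM in WT and at 22.4 and 22.3 CPM in T4A. DST fell by 0.69 ± 0.10 (adjusted p = 2.02e-05), to 0.618 of WT, and its T4A libraries were nearly identical. MACF1 was at 48.4 and 42.9 CPM in WT and at 24.5 and 34.5 CPM in T4A. MACF1 fell by 0.64 ± 0.12 (adjusted p = 0.000504), and the size of its fall rested in part on 1 library, with −0.41 when T4A replicate 1 was left out and −0.90 when T4A replicate 2 was. PLEC, plectin, a chromosome 8 gene whose product anchors intermediate filaments to junctions, was instead at 92.4 and 88.9 CPM in WT and at 100.7 and 96.7 CPM in T4A. Its log2 fold change was 0.12 ± 0.06, with an interval from −0.01 to 0.25 (adjusted p = 0.174). That interval excludes a fall of the size seen in DST or MACF1. With upper quartile scaling PLEC passed the test as higher (0.21, adjusted p = 0.0203). EPPK1, epiplakin, a keratin-binding plakin of epithelia and a neighbour of PLEC on chromosome 8, had 20 and 17 counts in WT and 15 and 4 in T4A. No difference in EPPK1 was detectable at this depth (−0.49 ± 0.75, interval from −2.06 to 1.07).

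UTRN, the autosomal relative of dystrophin, had the largest fall among the 10 genes. It had 1157 and 941 counts in WT (34.5 and 36.7 CPM) and 377 and 323 in T4A (16.6 and 17.2 CPM). The spread within each group was far smaller than the gap between them. UTRN fell by 1.08 ± 0.10 (adjusted p = 1.56e-07), a level 2.11-fold higher in WT than in T4A. This call held under each of the 17 alternatives run.

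FLNA, filamin A, stood at the other end. It was the most abundant member, with 42172 and 33117 counts in WT and 29355 and 24586 in T4A. Its level was 1257 and 1293 CPM in WT and 1293 and 1307 CPM in T4A, and its log2 fold change was 0.03 ± 0.03 (adjusted p = 0.590). The 95% interval of this change ran from −0.04 to 0.09. FLNA gave 65.9% and 67.4% of the summed CPM of the 10 genes in WT and 72.4% and 71.6% in T4A. The sum over the other 9 genes was 650 and 626 CPM in WT and 493 and 517 CPM in T4A. For the 5 genes over 300 kb in span it was 147 and 140 CPM in WT and 79.9 and 94.6 CPM in T4A. With upper quartile scaling FLNA passed as higher (0.11, adjusted p = 0.0131), and with library totals alone its value was −0.05 (adjusted p = 0.304), so no direction is given.

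Per length, the order of levels in WT was FLNA with 149.9 CPM per kb of canonical transcript, SPTAN1 with 27.9, SPTBN1 with 17.9, PLEC with 6.12, UTRN with 2.76, MACF1 with 1.88, DST with 1.46, ANK2 with 1.06, ANK3 with 0.671 and EPPK1 with 0.0787. The libraries of neighbours in this order did not overlap in WT. In T4A, UTRN and MACF1 stood at 1.31 ± 0.03 and 1.21 ± 0.29 CPM per kb (SD, n = 2) with overlapping libraries, as did DST and ANK2 with 0.905 and 0.819. The canonical transcript is not necessarily the one made in these cells, and the level of EPPK1 per length rests on an incomplete model.

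**Figure D2:**
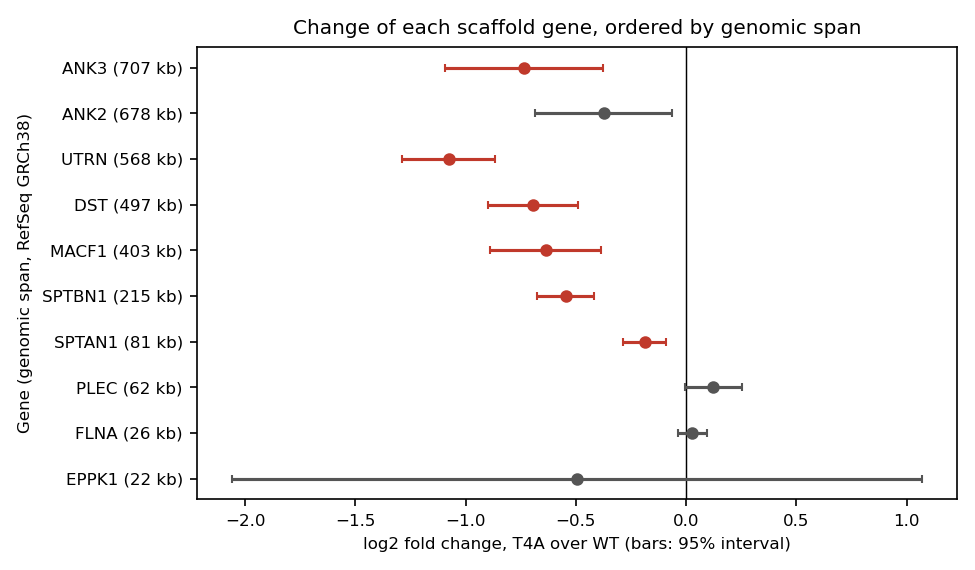
Log2 fold change (T4A over WT) of each scaffold gene, ordered by genomic span from the shortest at the bottom to the longest at the top. Points are estimates, bars 95% intervals, and red marks an adjusted p under 0.05. The 4 called genes over 300 kb lie between −1.08 and −0.64, while FLNA and PLEC lie at 0.03 and 0.12.

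The contrast was then set against length. Among the 10 members, 4 of the 5 genes over 300 kb in span fell, with changes from −1.08 to −0.37 over all 5. SPTBN1, the single member between 100 and 300 kb, fell. Of the 2 members between 30 and 100 kb, SPTAN1 fell and PLEC was not called, and of the 2 under 30 kb neither was called. Among all protein-coding genes tested, 24.2% fell at 300 kb or more and 30.8% at 100 to 300 kb. At 30 to 100 kb 22.1% of them fell, and at 10 to 30 kb 8.72%. Over the 10 genes, Spearman's correlation between change and RefSeq span was −0.67, and that with the length of the canonical transcript was −0.44. With exonic length, the union of annotated exons, it was −0.27, the weakest of the measures, with the longest transcript −0.45, and with the span in the lifted annotation −0.75. Without EPPK1, whose model is incomplete and whose counts are few, the correlations with RefSeq span and the canonical transcript were −0.78 and −0.43 over 9 genes. These values describe 10 genes measured in the same 4 libraries, and the genes are not replicates.

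Over 13598 protein-coding genes tested, longer genes tended to lower values. Spearman's correlation was −0.53 with the canonical transcript, −0.50 with the longest transcript, −0.43 with exonic length and −0.39 with span. Genes with canonical transcripts under 2 kb had a median log2 fold change of 0.27, and 33.7% of them rose. Among 1169 genes with canonical transcripts from 8 to 16 kb, the median was −0.42, and 43.5% fell and 1.11% rose. Among 79 genes of 16 kb or more, the median was −0.46 and 41.8% fell. By span, the median was 0.23 under 10 kb and −0.32 in 582 genes of 300 kb or more, of which 24.2% fell. Transcript length and span go together, so genes with canonical transcripts of 8 kb or more were also split by span. The median was −0.27 in 91 genes spanning 10 to 30 kb, −0.35 in 437 genes of 30 to 100 kb, −0.51 in 506 genes of 100 to 300 kb and −0.45 in 209 genes of 300 kb or more. The shares that fell in these classes were 39.6%, 41.4%, 49.6% and 34.9%.

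**Figure D3:**
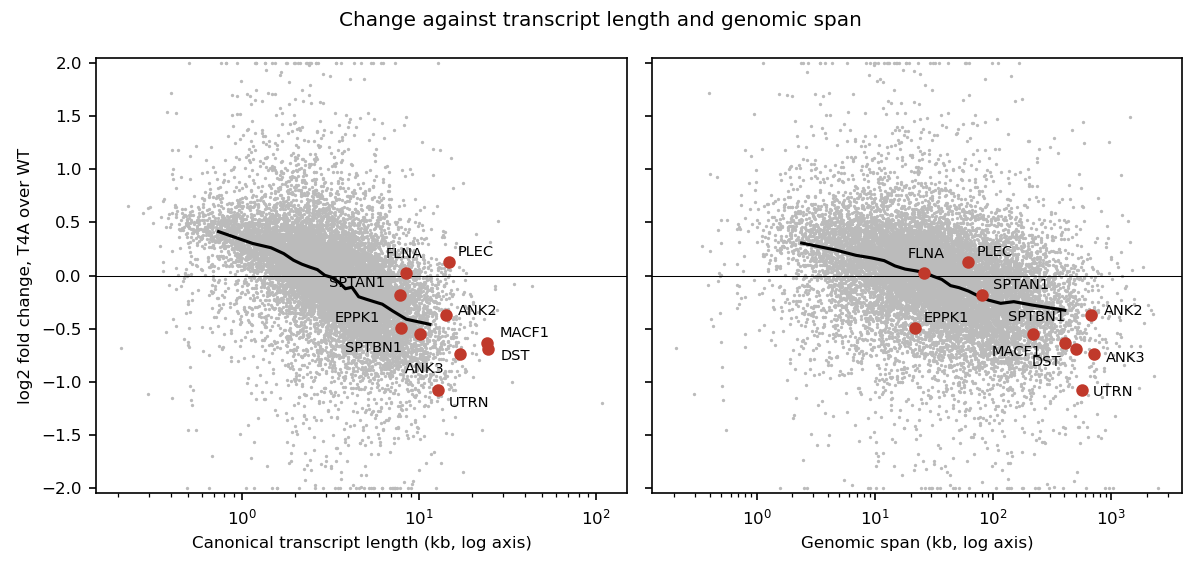
Log2 fold change (T4A over WT) against the length of the canonical transcript (left) and genomic span (right), both in kb on log axes. Grey points are 13598 protein-coding genes, with values beyond ±2 drawn at the edge. Black lines join medians of 20 bins of equal size, and red points are the 10 scaffold genes. On the right, grey points and the line use the span in the lifted annotation, and red points use the RefSeq span. The black line falls with length in both panels, and PLEC and FLNA lie above it on the left while UTRN lies below it in both.

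Each member was placed among genes of its own transcript length class. UTRN, at −1.08, was lower than all but 5.22% of the 1168 other genes with canonical transcripts from 8 to 16 kb. ANK3, DST and MACF1, with transcripts of 16 kb or more, had 23.1%, 26.9% and 33.3% of the 78 others below them. SPTBN1 had 37.6% of its class below it and ANK2 54.6%, and SPTAN1 had 55.3% of the genes from 4 to 8 kb below it. PLEC and FLNA stood high in the same class as UTRN, with 92.2% and 87.4% of its genes below them. Among genes of similar span, FLNA had 1694 of 3761 others below it and PLEC 3336 of 4457, while UTRN had 39 of 581.

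The trend with length was also taken out of each library before the test. With the exonic length trend removed, UTRN (−0.78, adjusted p = 2.71e-05) and SPTBN1 (−0.22, adjusted p = 0.0214) stayed lower, and PLEC (0.44, adjusted p = 7.19e-05) and FLNA (0.27, adjusted p = 8.85e-06) were higher than the trend. The values of ANK3 (−0.36), DST (−0.23) and MACF1 (−0.13) no longer passed (adjusted p = 0.177, 0.111 and 0.537). With the canonical transcript trend removed, UTRN alone stayed lower (−0.59, adjusted p = 0.000652), DST and MACF1 were at −0.05 and 0.00088, and PLEC, FLNA and SPTAN1 were higher than the trend (0.65, 0.40 and 0.16). With the span trend removed, UTRN (−0.73), DST (−0.36) and SPTBN1 (−0.27) stayed lower. PLEC was then higher (0.27, adjusted p = 0.00523), and FLNA was at 0.02 (adjusted p = 0.665). The removals based on span and on the canonical transcript were chosen after the data had been seen.

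**Figure D4:**
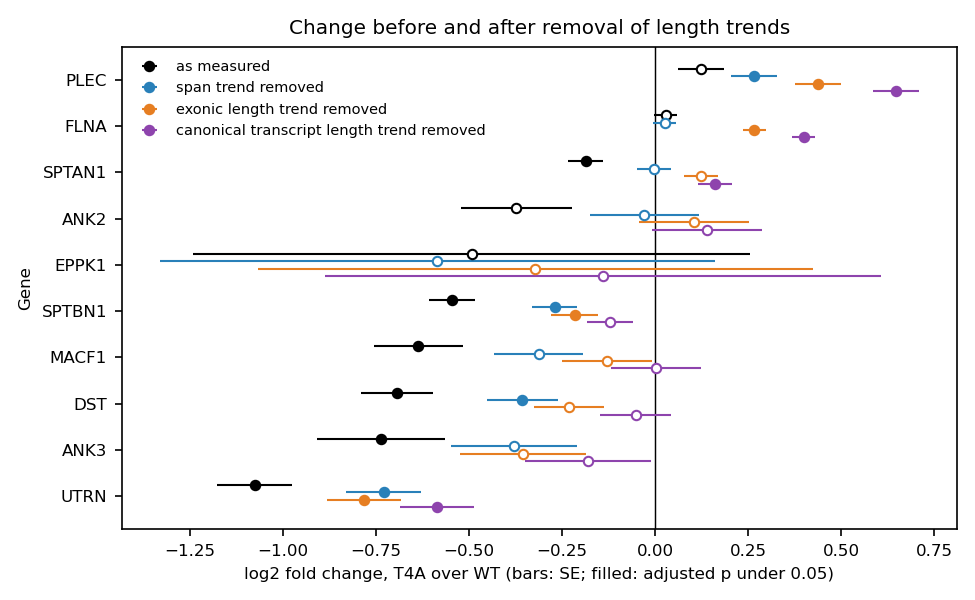
Log2 fold change (T4A over WT) of each scaffold gene as measured and after removal of the trend with span, exonic length or canonical transcript length. Bars are SE and filled points have an adjusted p under 0.05. UTRN stays left of 0 and filled in all 4 versions, and MACF1 moves from −0.64 to 0.00088.

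Relatives and partners of these proteins, 61 genes in 9 lists, were read from the same fit. Of 57 tested, 21 fell and 4 rose, with a median of −0.15, where 13.0% and 10.7% of all genes fell and rose. The 19 with canonical transcripts of 8 kb or more had 9 falls and 0 rises (median −0.32). Of all protein-coding genes with canonical transcripts from 8 to 16 kb, 43.5% fell and 1.11% rose (median −0.42). The 38 shorter relatives and partners had 12 falls and 4 rises (median −0.09), where 29.3% of protein-coding genes from 4 to 8 kb fell and 8.38% of those from 2 to 4 kb. These lists were drawn up with earlier results known.

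Close paralogs were not all called, and some had too few counts for a comparison. Among the other spectrins, SPTB, the erythroid β-spectrin, was at 11.7 and 10.9 CPM in WT and 6.48 and 7.44 CPM in T4A and fell by 0.70 ± 0.17 (adjusted p = 0.00475). SPTBN4 and SPTBN5 were at 0.31 ± 0.20 and 0.05 ± 0.39 and were not called. The third ankyrin, ANK1, was at −0.04 ± 0.27.

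Among the remaining plakins DSP, desmoplakin, which ties keratin to desmosomes, fell by 0.90 ± 0.06 (154 and 146 CPM in WT, 84.0 and 76.9 CPM in T4A), and it spans 45.4 kb. PPL, periplakin, stood at 0.55 ± 0.42 (adjusted p = 0.401) at under 2 CPM, and EVPL, envoplakin, was too low to test. FLNC, the muscle filamin (28.9 kb span), was at 153 and 158 CPM in WT and 129 and 135 CPM in T4A and fell by 0.24 ± 0.05 (adjusted p = 0.00226). The 95% interval of FLNC, from −0.35 to −0.13, lay below that of FLNA.

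**Figure D5:**
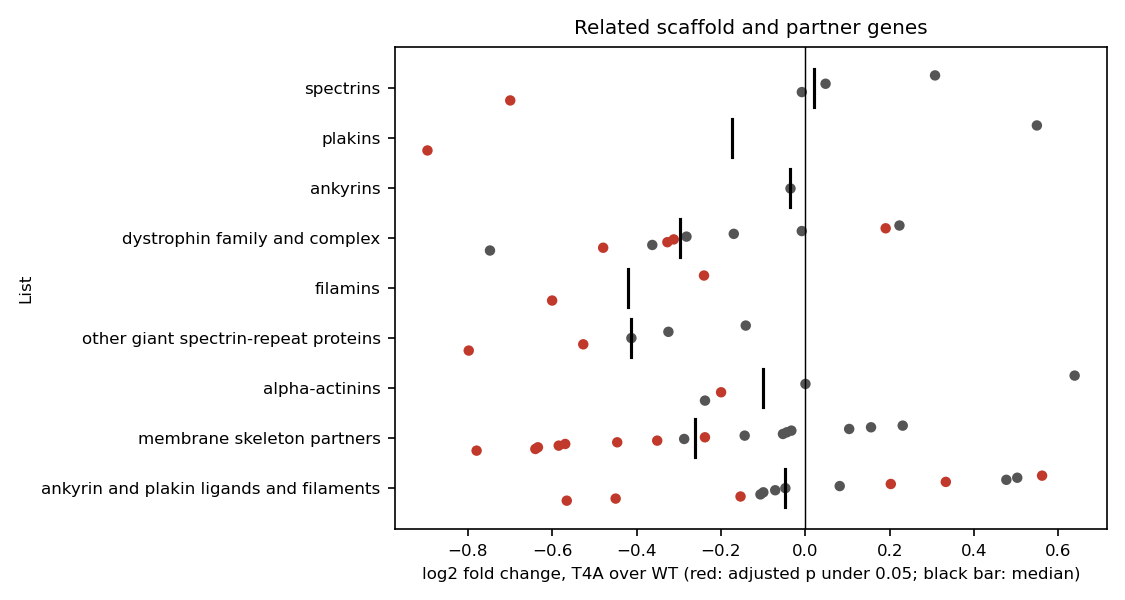
Log2 fold change (T4A over WT) of 57 tested relatives and partners of the scaffold genes in 9 lists, 1 point per gene, with called genes in red and black bars for medians. In red, 8 of 16 membrane skeleton partners lie left of 0 (13.0% of all genes tested fell, and 29.3% of protein-coding genes with canonical transcripts of 4 to 8 kb). The list of ligands and filaments has red points on both sides.

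Around utrophin, 3 of 10 tested genes of the dystrophin family and complex fell and 1 rose. Over all genes tested, 13.0% fell and 10.7% rose, and 29.3% fell among protein-coding genes with canonical transcripts of 4 to 8 kb. DAG1, dystroglycan, the membrane receptor that utrophin binds, fell by 0.48 ± 0.08 (73.5 and 67.4 CPM in WT, 49.4 and 51.8 CPM in T4A). The adaptors SNTB2 and DTNA fell by 0.31 and 0.33. DMD, dystrophin itself, was at −0.36 ± 0.19 and was not called (adjusted p = 0.181). Of the other giant spectrin-repeat genes, SYNE2, a nuclear envelope nesprin, fell by 0.80 ± 0.14 and TRIO, a guanine nucleotide exchange factor, by 0.53 ± 0.11, and SYNE1, SYNE3 and KALRN were not called. Of 4 α-actinins, which are short relatives of spectrin, ACTN1 fell by 0.20 ± 0.06 (adjusted p = 0.0228). ACTN4, at 513 and 494 CPM in WT and 514 and 492 CPM in T4A, had an interval from −0.08 to 0.08 around its log2 fold change.

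Of 16 membrane skeleton partners, 8 fell and 0 rose, where 13.0% of all genes tested fell and 10.7% rose. All 8 that fell have canonical transcripts of 4.14 to 9.15 kb. Among protein-coding genes from 4 to 8 kb 29.3% fell, and among those from 8 to 16 kb 43.5%. The 3 with the smallest p were EPB41L2, which fell by 0.63 ± 0.04, EPB41, which anchors spectrin to actin, by 0.78 ± 0.07, and TMOD3, a cap of actin filament ends, by 0.58 ± 0.08. In the list of ankyrin and plakin ligands and filaments, 3 of 13 tested genes fell and 3 rose (13.0% and 10.7% of all genes). Among the falls, ITGB1, an integrin, fell by 0.57 ± 0.04 and NRCAM, an adhesion molecule, by 0.45 ± 0.12. The integrin genes ITGA6 (−0.10 ± 0.21) and ITGB4 (0.50 ± 0.44) were not called. The 3 rises of this list were intermediate filament genes, with LMNA at 0.33 ± 0.06, VIM at 0.20 ± 0.05 and KRT8 at 0.56 (SE 0.115). Their canonical transcripts measure 3.18, 2.15 and 1.78 kb. KRT8 was at 15.3 and 16.4 CPM in WT and 22.0 and 24.8 CPM in T4A, without overlap.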

How the data were processed

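Poly(A) RNA of 2 T4A and 2 WT libraries was analysed, and the study calls the libraries of a group biological replicates. Per the submitters' processing notes, reads were trimmed with Trimmomatic 0.38, aligned to hg38 with HISAT2 2.2.1 and counted with featureCounts 2.0.1. The authors deposited these counts unscaled, 1 table per library. Strand was not used, and the sources used here do not give the treatment of fragments with several matches. From the deposited counts, 18139 genes kept by filterByExpr were compared in edgeR 4.0.16 (R 4.3.3) with TMM factors, glmQLFTest and Benjamini-Hochberg adjustment over all of them, and calls needed an adjusted p under 0.05. Errors (SE) are the log2 fold change over the square root of F, and 95% intervals use the t distribution with the residual and prior degrees of freedom. An exact permutation of 2 against 2 libraries cannot go below p = 0.333, so tests borrow their spread from all genes (common biological coefficient of variation 0.114). Replicates differed by more than sampling noise. Names and lengths came from GENCODE release 44 on another build (60877 of 62700 identifiers matched, 59852 with their version, although the methods name an earlier release), and positions and start windows from RefSeq on GRCh38. Length trends were removed as offsets from a loess of each library's log2 CPM deviations on log2 length. Other scalings, filters and tools (DESeq2 1.42.0, limma-voom in limma 3.58.1), each library left out and a replicate block were tried. By rule, all members and all tested spectrins, plakins, ankyrins and filamins are named. So are up to 3 called genes per direction with the smallest p in the other lists. DMD, SYNE1, SYNE3, KALRN, ACTN4, ITGA6 and ITGB4 were added after their values were seen. Some genes that this rule names are not reported here. Members and lists were chosen with earlier results of these data known. The code was tested on simulated data.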

Additional observations from a re-analysis of the deposited data

How the results depend on the processing

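Under other scalings, filters and tools, with mitochondrial counts left out and in the replicate block, 5 to 7 scaffold genes were called lower, and 2 (FLNA and PLEC) were called higher, with upper quartile factors only. The replicate block left 6 lower and 0 higher. Same-numbered libraries did not deviate together (correlation 0.00704 over 14704 genes). A low correlation cannot show whether the samples were handled in pairs. With library totals alone 2 related genes were called higher, and FLNA stood at −0.0498. Removal of the length trends changed most. With the exonic length trend removed, 1452 genes were called lower, 2 scaffold genes lower and 2 higher, and 8 related genes lower and 9 higher. In the replicate block with the length trend removed, these were 2 and 2 scaffold genes and 9 and 10 related genes. With the span trend removed, 1562 genes, 3 scaffold genes and 13 related genes were lower and 1 scaffold gene higher. With the canonical transcript length trend removed, 1038 genes were lower and 1265 higher, 1 scaffold gene was lower and 3 higher, and 7 related genes were lower and 8 higher. The median of the related genes was then 0.0725 (exonic length, with the block 0.0708), 0.0106 (span) and 0.0618 (canonical transcript). SPTAN1 stood at 0.12, in the block 0.12, and at 0.16 with the canonical transcript trend removed, ANK2 at 0.10, 0.10 and 0.14, and MACF1 at 0.00088. Genes whose longest transcript is 16 kb or more had a median of −0.46, against −0.36 for exonic lengths of 16 kb or more. EPPK1 lay between −1.54 and 0.0700 without 1 library, at 4 to 20 counts per library, and could not be tested with a mean of at least 1 CPM. The 6 calls of lower scaffold genes held without any 1 library, in fits where the lone library of a group is assumed to vary like the other group. Removal of a trend takes out whatever goes with length, and the cause of the trend was not tested.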

Other observations

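An unstranded count could mix neighbouring transcripts with the scaffold genes. The neighbours' own counts, given below, do not show how many fragments lay in shared exons. Exons of other genes covered 4.77% of the exonic length of ANK3, 4.49% of SPTBN1, 1.77% of SPTAN1, 0.368% of FLNA and 0.128% of MACF1, and none of ANK2, DST, EPPK1, PLEC or UTRN. SPTBN1-AS1 had 0 and 5 counts in WT and 0 in both T4A libraries, and SPTBN1-AS2 had 0 in all 4. DST-AS1 had 30 and 13 counts in WT and 10 and 16 in T4A, against 1265 and 886 and 508 and 420 for DST. DYNC2I2, which shares exonic bases with SPTAN1 on the opposite strand, had 2256 and 1639 counts in WT and 2321 and 2043 in T4A. These counts are not scaled for depth, which was lower in T4A, so DYNC2I2 made up a larger share of the T4A libraries. Its part in the SPTAN1 counts was not tested. Counts of the 2 genes that share exons with ANK3 were not read here.

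Windows of 100 bases of the canonical transcripts were compared with all annotated transcripts on both strands. Of the ANK3 windows 0.219% matched another gene, which is an antisense neighbour, and no window of the other 9 members did. Within EPPK1, 0.608% of the windows of its incomplete model occurred more than once. Copies in parts of the genome without annotation were not searched.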
